A study of Homo sapiens with 6 samples.

Results

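The plasminogen activator system, with further serpins, was followed through PLAU, PLAUR, PLAT, SERPINE2, SERPINB2, SERPINB6 and SERPINB8. These were looked up by symbol in the authors' table of 15706 genes from MDA-MB-231 cells. Of these 7 symbols, 6 had exactly 1 row each. The table lists PLAU as ENSG00000122861.16 (chromosome 10 of GRCh38), PLAUR as ENSG00000011422.12 (chromosome 19) and PLAT as ENSG00000104368.18 (chromosome 8). It lists SERPINE2 as ENSG00000135919.13 (chromosome 2), SERPINB6 as ENSG00000124570.20 (chromosome 6) and SERPINB8 as ENSG00000166401.15 (chromosome 18). SERPINB2, which encodes plasminogen activator inhibitor 2, had no row and was not analysed here. MDA-MB-231 is a human triple-negative breast cancer line. RNA was sequenced from 3 libraries of cells carrying an sgMLL3 guide, labelled as MLL3 knockout, and from 3 libraries of cells carrying the sgNT guide, labelled as wild type. MLL3, now named KMT2C, is an enzyme that methylates histone H3 at lysine 4. All 6 libraries came from untreated cells grown in DMEM with fetal bovine serum, and the labels number them as biological replicates 1 to 3 of each guide. The labels do not say whether a library came from a clone or a pool, nor whether the numbers stand for guides of different sequence.

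Plasminogen activators are serine proteases that cleave plasminogen to plasmin, a broad protease that dissolves fibrin and degrades matrix. PLAU encodes urokinase (uPA), which acts mainly at the cell surface bound to its receptor uPAR, the product of PLAUR. PLAT encodes tissue-type plasminogen activator (tPA), which is best known for its action on fibrin. Serpins are inhibitors that trap a protease in a covalent complex. Urokinase, its receptor and its inhibitors are long studied in breast tumours, where they are associated with invasion and prognosis.

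The stretches of 250 bases before the annotated starts of PLAU and PLAUR are shown because these genes had nearly the same profile of deposited values over the 6 libraries. Those of SERPINE2 and SERPINB8 are shown because their profiles differed from it. No window of PLAT was searched, and those of SERPINB6 were searched but are not printed. The sequences are from RefSeq on GRCh38.p14, 5′ to 3′ on the strand of the gene. Capitals mark TGAGTCA (the AP-1 element), GGGCGG (the GC box), CCAAT and TATAAA, each searched on both strands, so that a match on the other strand reads as its reverse complement. The second PLAU window lies downstream of the first, and SERPINE2 has a further window that is not printed.
PLAU, upstream start, chr10:73910360-73910609, plus strand: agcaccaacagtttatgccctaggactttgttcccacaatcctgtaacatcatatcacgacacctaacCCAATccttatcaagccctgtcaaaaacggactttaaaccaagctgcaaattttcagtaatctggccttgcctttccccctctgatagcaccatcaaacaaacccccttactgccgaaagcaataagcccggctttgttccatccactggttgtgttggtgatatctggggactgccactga
PLAU, downstream start, chr10:73910882-73911131, plus strand: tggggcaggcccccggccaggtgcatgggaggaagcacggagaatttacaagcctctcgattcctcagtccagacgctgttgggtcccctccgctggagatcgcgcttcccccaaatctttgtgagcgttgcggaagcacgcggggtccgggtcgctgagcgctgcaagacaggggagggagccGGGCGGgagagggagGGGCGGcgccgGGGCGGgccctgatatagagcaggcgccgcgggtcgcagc
PLAUR, chr19:43670170-43670419, minus strand: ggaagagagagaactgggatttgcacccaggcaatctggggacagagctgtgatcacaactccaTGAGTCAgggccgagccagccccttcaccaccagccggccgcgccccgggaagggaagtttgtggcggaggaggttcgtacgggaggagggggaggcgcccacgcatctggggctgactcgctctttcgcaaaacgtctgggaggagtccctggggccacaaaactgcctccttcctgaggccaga
SERPINE2, downstream start, chr2:224031479-224031728, minus strand: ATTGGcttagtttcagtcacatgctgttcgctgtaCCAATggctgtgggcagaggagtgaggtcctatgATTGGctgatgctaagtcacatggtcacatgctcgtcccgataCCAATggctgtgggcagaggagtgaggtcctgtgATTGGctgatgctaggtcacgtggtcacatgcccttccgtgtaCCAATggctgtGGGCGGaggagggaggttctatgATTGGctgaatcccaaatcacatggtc
SERPINB8, chr18:63969831-63970080, plus strand: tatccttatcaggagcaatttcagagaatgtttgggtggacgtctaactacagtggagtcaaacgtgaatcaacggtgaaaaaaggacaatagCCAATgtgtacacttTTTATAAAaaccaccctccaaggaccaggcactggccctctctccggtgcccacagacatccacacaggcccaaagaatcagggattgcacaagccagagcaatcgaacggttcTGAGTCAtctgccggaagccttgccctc

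The downstream PLAU window held 3 GC boxes, between positions -66 and -35 counted from the start, and no match to the other motifs. The PLAUR window held 1 TGAGTCA at -186 to -180, and the SERPINB8 window held 1 at -28 to -22. The printed SERPINE2 window held 7 CCAAT matches, 3 on the strand of the gene and 4 on the other, with 1 GC box. Some of these CCAAT matches lie in a stretch of sequence that is repeated within the window. The SERPINE2 window that is not printed held 2 GC boxes and no match to the other motifs. In SERPINB8 the pair of TATAAA matches on opposite strands overlapped each other, and no other matches overlapped. Of 35116 windows of the same length before annotated starts, 4.2% held TGAGTCA, 42.6% GGGCGG, 32.0% CCAAT and 10.7% TATAAA. The motif that PLAUR and SERPINB8 share did not occur in either PLAU window.

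The libraries held 41401044 to 49514464 reads in the listed genes for sgMLL3 and 41240265 to 48244821 for sgNT, as recovered from the normalized counts. KMT2C, the targeted gene, stood at 1519, 1660 and 1339 normalized counts in the sgMLL3 libraries and 1367, 1379 and 1255 in the sgNT libraries (log2 fold change 0.17, SE 0.10, limma adjusted p = 0.20), so its transcript gives no check of the label. The vimentin gene VIM was abundant (20700 to 22300 in sgMLL3, 24100 to 24500 in sgNT) and CDH1 was near 0 (2.11 to 5.51 and 3.86 to 7.52). Of the other markers of the line SPARC was low (54.9 to 65.1 in sgMLL3, 61.8 to 91.6 in sgNT), and the keratin gene KRT8, on the luminal list, was abundant (45900 to 52400 in sgMLL3, 50600 to 55700 in sgNT), as were KRT18 and KRT19, while ESR1, PGR and FOXA1 had no row and were not analysed here. Summed levels of 5 of 8 fibroblast markers (1063 to 1143 in sgMLL3, 1790 to 1953 in sgNT), 5 of 6 leukocyte markers (564 to 660 and 813 to 992) and 3 of 4 endothelial markers (165 to 207 and 222 to 291) gave ranges in sgMLL3 below those in sgNT. DCN, LUM, PDGFRA, CD68 and CDH5 had no row and were not analysed here, and LYZ and VWF were near 0 (1.77 to 4.23 and 1.84 to 5.32 in sgMLL3). Of the markers summed, COL1A2, PDGFRB, KDR and VWF had ranges apart between the groups, and the ranges of the others overlapped. The labels name MDA-MB-231 cells only, so these sums are no count of other cell types. The part of these markers in the results below was not tested. In bulk RNA fewer cells that express a gene and less RNA per cell cannot be told apart. On the second principal component sgNT replicate 1 lay at -34.9 and the other 5 libraries at 2.03 to 15.1, and results that rest on it are given with and without it. Fold changes also followed the GC content of the transcripts (Spearman's rho -0.673 across 14598 genes, which are not independent replicates). Values are therefore given as deposited and after removal of that trend, in which splines of GC content and transcript length were subtracted in each library.

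PLAU was the only member that passed the test as deposited. It fell to 17571, 17988 and 18208 normalized counts in sgMLL3 replicates 1, 2 and 3, against 18545, 23191 and 23802 in sgNT replicates 1, 2 and 3. The means were 17923 ± 324 in sgMLL3 and 21846 ± 2880 in sgNT (SD, n = 3 each). The groups did not overlap, but sgNT replicate 1 lay just above the highest sgMLL3 library, and the sgNT libraries spread far more than the sgMLL3 libraries. The log2 fold change was -0.28 (SE 0.09, 95% interval -0.47 to -0.09, limma adjusted p = 0.026), a fold of 0.825. This made 0 of 6 members higher and 1 of 6 lower, where 18.9% and 14.4% of the 14618 genes tested were called higher and lower (33.2% in either direction), so the share of members called lower was near that of all genes. At an unadjusted p under 0.05 limma had 1 member higher (SERPINE2) and 2 lower (PLAU and PLAUR). The share of all genes at that unadjusted threshold was not counted, so these numbers have no background beside them. On recovered reads edgeR also called PLAU alone (adjusted p = 0.020), beside 33.6% of all genes, 18.3% higher and 15.3% lower. Of all genes tested, 46.3% did not overlap between the groups. The authors' deposited table gave PLAU a log2 fold change of -0.29 (adjusted p = 0.016), with 38.5% of its genes past the same threshold and 17.4% lower.

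The PLAU call depended on which libraries entered. Without sgMLL3 replicate 1 or 2 it was -0.26 and -0.28 (limma adjusted p = 0.094 and 0.087), and without sgNT replicate 2 or 3 it was -0.23 and -0.21 (adjusted p = 0.11 and 0.10), so that none of these 4 fits called it. Without sgNT replicate 1 it was -0.39 (adjusted p = 8.2e-05), and without sgMLL3 replicate 3 -0.29 (adjusted p = 0.045). PLAU has a GC content of 54.0%, and 886 tested genes within 1 percentage point of it had a median log2 fold change of -0.17. Of these 886 genes, 18.5% were called lower and 0.903% higher. With the trend removed PLAU stood at -0.13 (SE 0.074, 95% interval -0.29 to 0.04, adjusted p = 0.31), and its groups overlapped. C10orf55, a gene on the other strand that overlaps PLAU, was at 134, 121 and 118 normalized counts in sgMLL3 and 159, 155 and 162 in sgNT. Without a stated strand setting, reads of the pair cannot be told apart, but C10orf55 held 142 counts on average beside 19884 for PLAU.

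**Figure D1:**
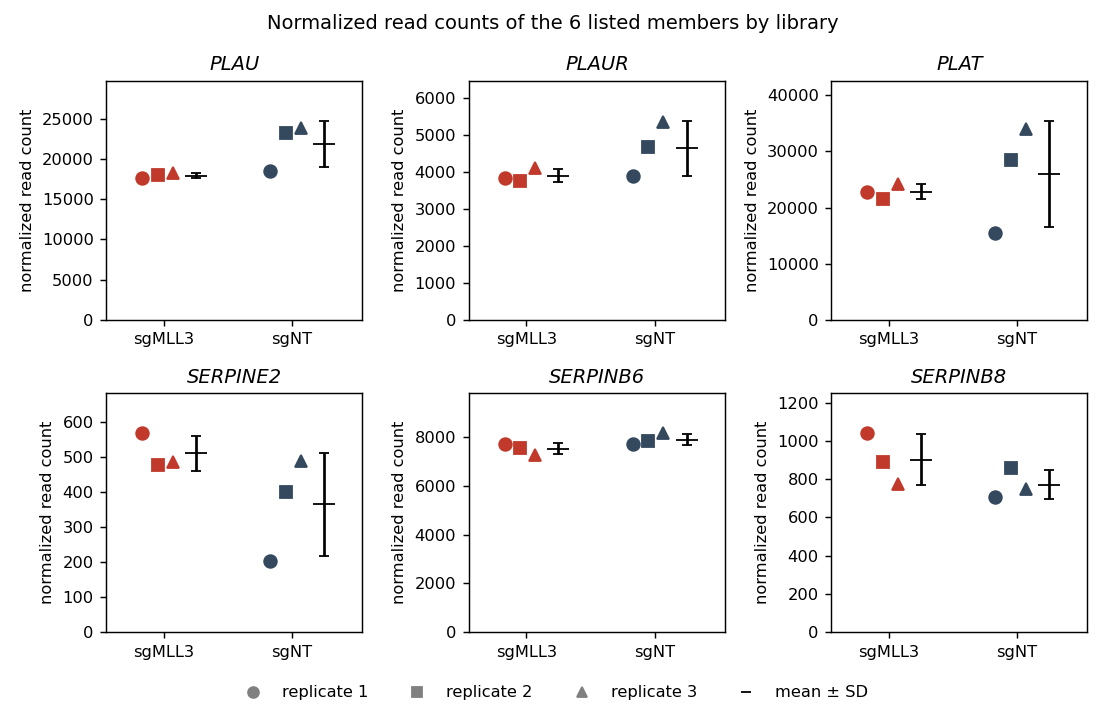
Normalized read counts (y axis, from 0) of the 6 listed members in each sgMLL3 and sgNT library, with markers for replicates 1 to 3 and the mean ± SD (n = 3) beside each group. In PLAU, PLAUR, PLAT and SERPINE2 sgNT replicate 1 lies below the other sgNT libraries, at 18545, 3887, 15539 and 205 counts.

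PLAUR, the receptor that holds urokinase at the cell surface, had 3847, 3759 and 4109 normalized counts in the sgMLL3 libraries and 3887, 4688 and 5367 in the sgNT libraries. Only sgNT replicate 1 lay within the range of the sgMLL3 libraries. The log2 fold change of -0.24 (SE 0.10, 95% interval -0.45 to -0.03) missed the threshold (limma adjusted p = 0.076), as it did in the authors' deposited table (-0.25, adjusted p = 0.064). Without sgNT replicate 1 PLAUR passed at -0.36 (adjusted p = 0.0011), where 19.6% of tested genes were called lower. Its GC content was 55.7%, and 872 genes of like GC content had a median of -0.19, with 24.4% of them called lower and 0.803% higher. With the trend removed PLAUR stood at -0.032 (95% interval -0.21 to 0.15, adjusted p = 0.85).

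PLAU and PLAUR kept nearly the same ratio in every library. The log2 ratio of PLAU to PLAUR was 2.19, 2.26 and 2.15 in sgMLL3 and 2.25, 2.31 and 2.15 in sgNT, a difference of -0.037 (exact two-sided permutation p = 0.6, n = 3 each, where 0.1 is the smallest p possible). With the trend removed the difference was -0.094 (exact two-sided permutation p = 0.2). Per kilobase of the longest transcript, PLAU stood 2.68 to 2.90 times above PLAUR in sgMLL3 and 2.69 to 3.00 times above it in sgNT. After centring each gene on its mean of the 6 libraries, the log2 profiles of PLAU and PLAUR differed by a root mean square of 0.059, which put PLAUR at rank 130 of 12453 genes by likeness to PLAU. Likeness was measured with the GC trend left in, and the GC contents of PLAU and PLAUR are close (54.0% and 55.7%). The part of the trend in this likeness was not tested. The genes nearest to PLAU by this measure were TMEM185A (0.018), STEAP3, a ferrireductase (0.025), and RAB32, a small GTPase (0.026). Those nearest to PLAUR were FCGRT, the neonatal Fc receptor (0.023), LRRC8A, a volume-regulated anion channel subunit (0.024), and the nuclear receptor ESRRA (0.028).

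PLAT, the tissue-type activator, changed direction with the choice of libraries. It had 22793, 21533 and 24166 normalized counts in the sgMLL3 libraries and 15539, 28455 and 33990 in the sgNT libraries. The sgMLL3 libraries lay within 1.12-fold of each other, whereas sgNT replicate 1 lay below and sgNT replicates 2 and 3 above all of them. Among 11518 genes with a mean of at least 100 counts, 0.538% had a wider spread among the sgNT libraries than the 2.19-fold of PLAT. The log2 fold change was -0.11 (SE 0.18, 95% interval -0.48 to 0.26, limma adjusted p = 0.65). Without sgNT replicate 1 PLAT fell by 0.45 on the log2 scale (adjusted p = 4e-05), and without sgNT replicate 3 it stood at 0.12 (adjusted p = 0.58), on the other side of 0. PLAT has a GC content of 45.6%, and with the trend removed it was -0.21 with all libraries (adjusted p = 0.59) and -0.56 without sgNT replicate 1 (adjusted p = 2.6e-07). Per kilobase PLAT and PLAU were the most abundant members, at 6595 ± 380 and 6743 ± 122 in sgMLL3 and 7509 ± 2730 and 8219 ± 1080 in sgNT (SD, n = 3 each), and did not differ beyond their spread. The log2 ratio of PLAU to PLAT was -0.38, -0.26 and -0.41 in sgMLL3 and 0.26, -0.30 and -0.51 in sgNT, so sgNT replicate 1 was the one library with more PLAU than PLAT reads (difference -0.16, exact two-sided permutation p = 0.8, n = 3 each).

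SERPINE2 encodes protease nexin 1, a secreted serpin that inhibits thrombin, urokinase and tPA. It had 569, 478 and 488 normalized counts in the sgMLL3 libraries and 205, 401 and 491 in the sgNT libraries. The sgMLL3 values overlapped sgNT replicate 3, and sgNT replicate 1 was the lowest library by far, at 0.459 times the mean of the other 2. The log2 fold change of 0.57 (SE 0.22, 95% interval 0.12 to 1.03) lay at the edge of the threshold (limma adjusted p = 0.051), and the authors' deposited table gave 0.49 (adjusted p = 0.31). Without sgNT replicate 1 it was 0.20 (adjusted p = 0.23), without sgNT replicate 2 it was 0.68 (adjusted p = 0.044), and without sgNT replicate 3 it was 0.83 (adjusted p = 0.0034). The GC content of SERPINE2 is 41.0%, and 1269 genes of like GC content had a median of 0.35, of which 48.5% were called higher. With the trend removed SERPINE2 stood at 0.22 (95% interval -0.37 to 0.80, adjusted p = 0.66), and at -0.19 (adjusted p = 0.28) once sgNT replicate 1 was also left out.

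**Figure D2:**
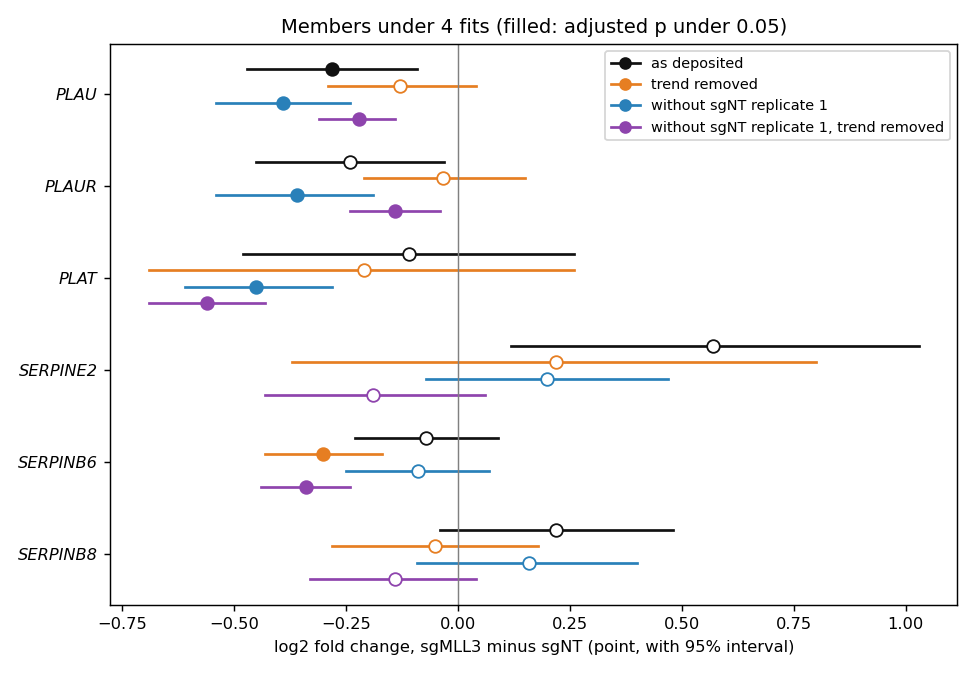
Log2 fold change of each member, sgMLL3 minus sgNT (x axis), with its 95% interval from limma, under 4 fits, filled where the adjusted p was under 0.05. PLAU was called lower as deposited (-0.28). PLAU, PLAUR and PLAT were called lower without sgNT replicate 1 (-0.39, -0.36 and -0.45), and SERPINB6 with the trend removed (-0.30). Without sgNT replicate 1 and with the trend removed, PLAU, PLAUR, PLAT and SERPINB6 were called lower (-0.22, -0.14, -0.56 and -0.34). Of all tested genes 14.4%, 19.6%, 5.95% and 14.5% were called lower in these fits, in the order given.

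The ratio of the activator PLAU to its inhibitor SERPINE2 was lower in every sgMLL3 library than in any sgNT library. Its log2 value was 4.95, 5.23 and 5.22 in sgMLL3 and 6.49, 5.85 and 5.60 in sgNT. The difference of -0.85 has an exact two-sided permutation p of 0.1 (n = 3 each), the smallest that this design allows, and it cannot pass 0.05. Without sgNT replicate 1 the difference was -0.59, and with the trend removed it was -0.35 (exact p = 0.5). Per kilobase, PLAU stood 69.5, 84.9 and 84.1 times above SERPINE2 in sgMLL3 and 204, 130 and 109 times above it in sgNT. With the trend left in, the genes whose profiles lay nearest to SERPINE2 were TMEM45A (root mean square difference 0.082), the chaperone cofactor DNAJB9 (0.097) and TNFRSF11B, which encodes osteoprotegerin (0.11). TNFRSF11B had 1158, 999 and 1064 counts in sgMLL3 and 494, 776 and 935 in sgNT.

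**Figure D3:**
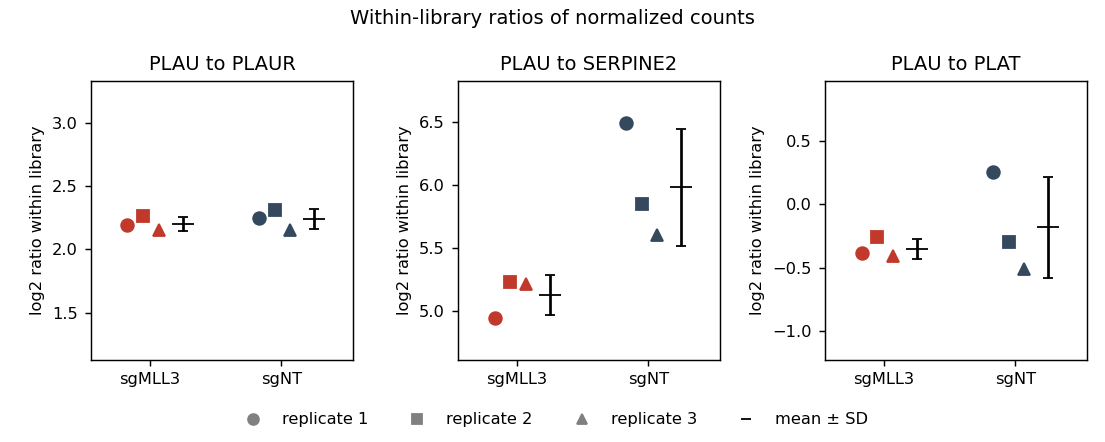
Log2 ratio within each library (y axis, the same span in each panel) of PLAU to PLAUR, to SERPINE2 and to PLAT, with the mean ± SD (n = 3) beside each group. The ratio to PLAUR stays between 2.15 and 2.31 in all libraries, and the ratio to SERPINE2 is 4.95 to 5.23 in sgMLL3 and 5.60 to 6.49 in sgNT.

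SERPINB6 and SERPINB8 are serpins without a classical signal sequence that act mainly inside cells. SERPINB6 inhibits trypsin-like proteases and cathepsin G, and SERPINB8 inhibits furin. SERPINB6 varied little, with 7722, 7574 and 7290 normalized counts in sgMLL3 and 7717, 7829 and 8169 in sgNT. Each group lay within 1.06-fold, and the groups overlapped at sgMLL3 replicate 1. The log2 fold change was -0.07 (SE 0.076, 95% interval -0.23 to 0.09, limma adjusted p = 0.50). SERPINB6 has a GC content of 43.5%, and 1267 genes of like GC content had a median of 0.20, with 29.9% of them called higher and 1.5% lower. With the trend removed SERPINB6 fell by 0.30 (SE 0.059, 95% interval -0.43 to -0.17, adjusted p = 0.0099), and its groups no longer overlapped. Of 14598 genes 5.95% were called lower in that fit and 30.9% did not overlap. The call was lost without any one of the sgMLL3 libraries (-0.30, -0.29 and -0.30, adjusted p = 0.061, 0.068 and 0.050) and remained without any one of the sgNT libraries (-0.34, -0.32 and -0.24, adjusted p = 7.3e-06, 0.032 and 0.027). SERPINB6 was thus the 1 of 6 members called lower with the trend removed, and 0 were called higher, where 4.08% of genes were.

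SERPINB8 had 1041, 892 and 777 normalized counts in the sgMLL3 libraries and 707, 858 and 752 in the sgNT libraries. The groups overlapped, and here it was the sgMLL3 libraries that spread (1.34-fold, with 8.07% of genes wider). The log2 fold change of 0.22 (SE 0.12, 95% interval -0.04 to 0.48, limma adjusted p = 0.17) did not pass. Genes of its GC content of 42.3% had a median of 0.27, and with the trend removed SERPINB8 stood at -0.05 (adjusted p = 0.82). HMSD overlaps SERPINB8 on the same strand and held 247, 254 and 222 counts in sgMLL3 and 184, 223 and 199 in sgNT, so some reads could belong to either gene. Per kilobase SERPINB6 stood at 1340 ± 39.1 in sgMLL3 and 1407 ± 41.8 in sgNT, SERPINB8 at 260 ± 38.0 and 222 ± 22.4, and SERPINE2 at 85.4 ± 8.38 and 61.0 ± 24.4 (SD, n = 3 each). The order of levels below PLAU and PLAT was PLAUR, SERPINB6, SERPINB8 and SERPINE2 in both groups, with no overlap between neighbours in this part of the order. At most 2.17% of the 50-base words of the longest transcript of any member occurred in another gene.

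The low value of sgNT replicate 1 ran through the members. It was the lowest sgNT library for all 6 of them, where the same held for 35.4% of all 14618 tested genes, and for 41 of 70 tested genes of the other pathway lists (58.6%). PLAU was at 0.789, PLAUR at 0.773, PLAT at 0.498 and SERPINE2 at 0.459 of the mean of the other 2 sgNT libraries, whereas SERPINB8 was at 0.878 and SERPINB6 at 0.965. Without this library limma called 3 of 6 members lower (PLAU, PLAUR and PLAT) and 0 higher, where 19.6% and 22.6% of all genes were called (42.2% in either direction). With the trend also removed 4 of 6 were lower, SERPINB6 added, and 0 higher, against 14.5% and 10.2% of genes (24.7%). Because sgNT replicate 1 was the lowest sgNT library for all 6 members, leaving it out lowers the fold change of each by construction. The shares of all genes are therefore no like background for these counts. Whether sgNT replicate 1 or the other pair of sgNT libraries better represents the control cells was not tested.

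Across 6 lists of other genes of the system, 73 of 98 symbols were in the table and 70 were tested. Of these 10 rose and 9 fell (27.1%, beside 33.2% of all genes tested, of which 18.9% were higher and 14.4% lower), with a median log2 fold change of -0.051, beside -0.017 over all tested genes. With the trend removed 3 rose and 4 fell (10.0%, the same share as over all genes). SORL1, SorLA, a sorting receptor that binds urokinase complexes and clears them, had 952, 1087 and 965 counts in sgMLL3 and 1763, 1613 and 1447 in sgNT. It fell by 0.68 (SE 0.10, limma adjusted p = 0.00018) and by 0.75 with the trend removed (adjusted p = 0.00072), and it alone kept its call without each of the 6 libraries in turn in both analyses. LRP1, the main clearance receptor of protease-serpin complexes, fell to 2713, 3218 and 3250 counts in sgMLL3, against 3399, 3862 and 4221 in sgNT. Its log2 fold change was -0.32 (adjusted p = 0.019), and -0.18 with the trend removed (adjusted p = 0.099). The call of LRP1 was lost without sgMLL3 replicate 1 or sgNT replicate 2 or 3. CLTC, the clathrin heavy chain, rose by 0.36 (adjusted p = 0.0041), and its value was 0.027 after trend removal. Thus 1 of 11 clearance genes rose and 2 fell.

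Among 10 genes that bind plasminogen at the cell surface, CKAP4 fell by 0.27 (limma adjusted p = 0.023) and HMGB1 rose by 0.29 (adjusted p = 0.042). With the trend removed CKAP4 was at -0.094 (adjusted p = 0.36) and HMGB1 at -0.13 (adjusted p = 0.35), on the other side of 0. As deposited, both calls were lost without sgMLL3 replicate 1 or 2 or sgNT replicate 2 or 3, and HMGB1 ranged over 0.17 to 0.44. ANXA2 and S100A10 form a plasminogen-binding heterotetramer. ANXA2 stood at -0.052 (adjusted p = 0.64) as deposited and at -0.23 (adjusted p = 0.026) with the trend removed, and S100A10 at -0.19 (adjusted p = 0.083) and 0.033 (adjusted p = 0.80). ANXA2 was named after its value was seen, and without any library but sgNT replicate 1 its call with the trend removed was lost. Of 12 tested partners and ligands of uPAR, 3 rose and 2 fell (41.7%, beside 33.2% of all genes tested). The integrin chains ITGAV and ITGB1 rose by 0.48 and 0.49 (adjusted p = 0.0013 and 0.00082) and CAV1, caveolin 1, by 0.27 (adjusted p = 0.024), whereas ITGA3 fell by 0.36 (adjusted p = 0.0095) and ITGB3 by 0.77 (adjusted p = 0.025). The calls of CAV1 and ITGB3 were lost without sgMLL3 replicate 1 or 2 or sgNT replicate 2 or 3, and that of ITGA3 without sgMLL3 replicate 1. With the trend removed 0 of these 12 passed in limma, beside 10.0% of all genes tested. At an unadjusted p under 0.05, 2 of them were higher and 2 lower. Here too the share of all genes at the unadjusted threshold was not counted.

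**Figure D4:**
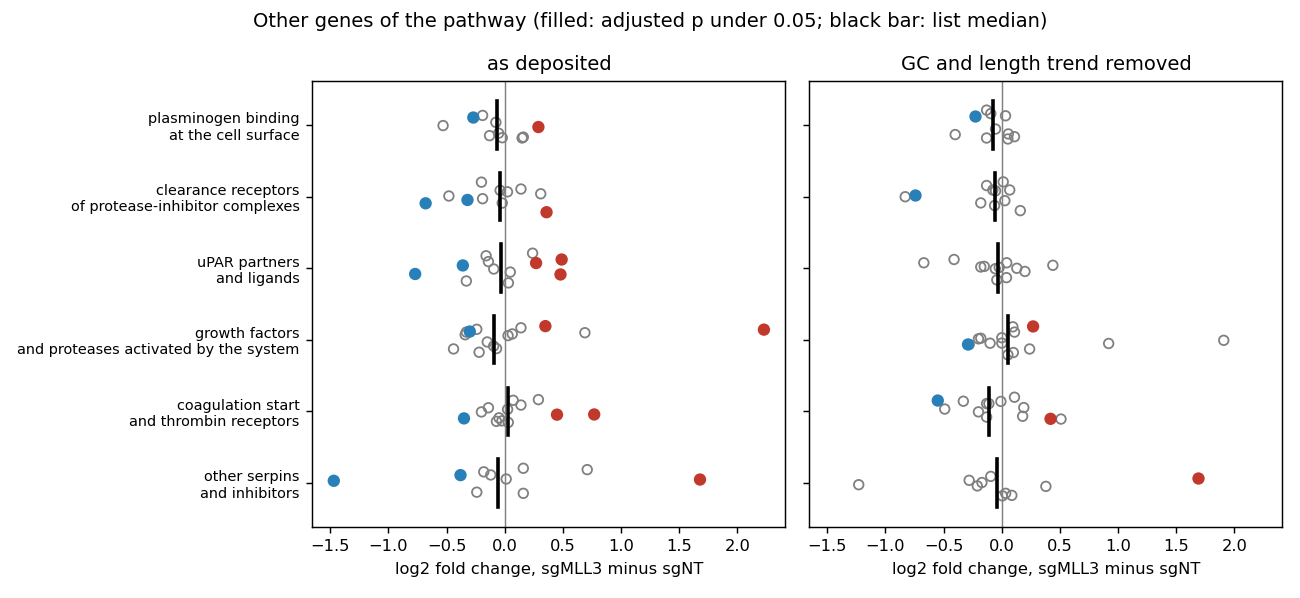
Log2 fold change, sgMLL3 minus sgNT (x axis), of the tested genes in each of 6 lists, as deposited (left) and with the GC and length trend removed (right), filled red (higher) or blue (lower) where the limma adjusted p was under 0.05, with a black bar at the list median. As deposited 10 genes were higher and 9 lower, and with the trend removed 3 and 4.

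Of 15 tested growth factors, receptors and proteases linked to the system, 2 rose and 1 fell (20.0%, beside 33.2% of all genes tested). MET, the receptor of hepatocyte growth factor, rose by 0.35 (limma adjusted p = 0.0073), and its value was 0.053 after trend removal. The call of MET was lost without sgMLL3 replicate 1 (adjusted p = 0.053). PDGFD, a growth factor that urokinase can activate, had 23.2, 28.4 and 34.9 counts in sgMLL3 and 2.15, 15.0 and 3.86 in sgNT (log2 fold change 2.23, SE 0.58, adjusted p = 0.008), and 1.91 with the trend removed (adjusted p = 0.066). CTSB, the lysosomal protease cathepsin B, fell by 0.30 (adjusted p = 0.0097), and its value was -0.18 after trend removal (adjusted p = 0.051). The call of CTSB as deposited was lost without sgMLL3 replicate 1 or 2 (adjusted p = 0.053 for both). With the trend removed CTSL was called higher (0.27, adjusted p = 0.018) and PDGFC lower (-0.29, adjusted p = 0.018). As deposited they stood at 0.14 and 0.065 (adjusted p = 0.20 and 0.55). The call of CTSL was lost without sgMLL3 replicate 1 or 2 or sgNT replicate 3. That of PDGFC was lost without sgMLL3 replicate 1 or 2 or sgNT replicate 2 or 3. Among 13 coagulation genes 2 rose and 1 fell (23.1%, beside 33.2% of all genes tested). PROS1, the anticoagulant protein S, rose to 1824, 1800 and 1506 counts in sgMLL3, against 922, 1072 and 1008 in sgNT (0.77, SE 0.11, adjusted p = 7.9e-05), and by 0.42 with the trend removed (adjusted p = 0.014). That second call was lost without sgMLL3 replicate 1 or 2. TFPI, the tissue factor pathway inhibitor, rose by 0.45 (adjusted p = 0.0018) and THBD, thrombomodulin, fell by 0.35 (adjusted p = 0.031), and with the trend removed both missed the threshold (adjusted p = 0.50 and 0.28). The call of THBD as deposited was lost without sgMLL3 replicate 1 or 3 or sgNT replicate 2 or 3. TFPI2 was at -0.20 as deposited (adjusted p = 0.21) and was called lower with the trend removed (-0.55, adjusted p = 0.027). It kept that call only without sgNT replicate 1 among the 6 fits that left out a library.

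Of 10 tested serpins and other inhibitors outside the members, 1 rose and 2 fell (30.0%, beside 33.2% of all genes tested). A2M, alpha-2-macroglobulin, which traps many proteases including plasmin, had 44.4, 39.0 and 64.2 counts in sgMLL3 and 8.62, 10.7 and 30.9 in sgNT. It rose by 1.68 (SE 0.44, limma adjusted p = 0.008) and by 1.69 with the trend removed (adjusted p = 0.037), and that call was lost without any one of the sgMLL3 libraries or sgNT replicate 2. SERPINF2, the plasmin inhibitor alpha-2-antiplasmin, had 6.34, 3.55 and 7.34 counts in sgMLL3 and 21.5, 15.0 and 15.5 in sgNT (-1.47, SE 0.54, adjusted p = 0.045), a level of few reads, and kept its call only without sgMLL3 replicate 3 among the 6 fits that left out a library. The 19 genes called as deposited included 8 that kept their call without each of the 6 libraries in turn, namely A2M, CLTC, ITGAV, ITGB1, PDGFD, PROS1, SORL1 and TFPI. Of these CLTC, ITGAV, ITGB1, PDGFD and TFPI were not called with the trend removed. Of the 7 genes called with the trend removed, 1 (SORL1) kept its call in all 6 such fits. The share of all called genes that kept their call in this way was not counted.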

How the data were processed

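Total RNA from 3 sgMLL3 and 3 sgNT libraries of MDA-MB-231 cells was sequenced. Per the submitters' processing notes the tools were STAR 2.4.0, featureCounts 1.5.0, DESeq2 1.30.1 and FastQC, on GRCh38.p13. The sources used here do not give the annotation, the use of strand or the filters. The authors deposited 1 table with a normalized read count per gene and library, a signal made by dividing reads by 1 size factor per library. Per the file headers it also holds their log2 fold change with its standard error, a test statistic (a score), the p-value and the adjusted p-value. All values (100%) lay within 0.01 of a whole number of reads after division by the value of 1 read, and every listed gene had at least 1 read in each library.

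Log2(value + 1) of 14618 genes with a mean of at least 10 was tested with limma 3.58.1 in R 4.3.3 (empirical Bayes with a trend in the variance), two-sided, Benjamini-Hochberg adjusted over all of them, with a threshold of 0.05. Fold changes are on that scale and so understate changes at low counts. Trend removal subtracted natural splines with 5 terms each of GC percent and log2 length of the longest GENCODE 29 transcript (14598 genes). Precision is limited by the spread between 3 libraries per group and, for genes of few reads, by counting error. The recovered reads were tested with edgeR 4.0.16 and DESeq2 1.42.0. Other alternatives were pseudocounts of 0.5 and 5, other filters, quantile normalization, a block for the replicate number, and each library left out in turn. Scripts were tested on simulated data. The members and lists were chosen with earlier results of these data known. The text names all members, KMT2C, up to 3 called genes per direction and list, and, for PLAU, PLAUR and SERPINE2, the 3 nearest profiles among genes averaging 50 or more. One called gene of the lists enters the counts and is not reported here.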

Additional observations from a re-analysis of the deposited data

How the results depend on the processing

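PLAU stood at -0.28 and passed in edgeR and DESeq2 on recovered reads (-0.29 and -0.28), with both pseudocounts and both filters. It did not pass after quantile normalization (-0.18, limma adjusted p = 0.089) or trend removal (-0.13, adjusted p = 0.31). Its range without single libraries was -0.39 to -0.065, that of PLAUR -0.36 to 0.043, PLAT -0.56 to 0.12, SERPINE2 -0.19 to 0.83, SERPINB6 -0.34 to -0.047 and SERPINB8 -0.14 to 0.32, in each case over fits with the trend left in or removed. PLAT was 0.001 after quantile normalization. SERPINE2 passed at 0.57 with a pseudocount of 5 or a mean of at least 50 (adjusted p = 0.049 for both), which made 1 member higher. SERPINB6 was -0.30 and SERPINB8 -0.05 with the trend removed. The ratio of PLAU to PLAT differed by 0.087 with the trend removed, and without single libraries the ratios to PLAUR, SERPINE2 and PLAT ranged over -0.081 to -0.002, -1.04 to -0.59 and -0.33 to 0.057. Members called lower numbered 0 after quantile normalization and 0 to 4 without single libraries, and members called higher 0 to 1. After trend removal 3 pathway genes were higher and 4 lower, and 0 to 11 and 1 to 18 without single libraries. Of all genes tested, 595 were higher and 868 lower after trend removal, and 127 to 3300 and 252 to 2868 without single libraries. The causes of these changes were not tested. Fits without a library and with the trend removed were added after seeing the data.

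Same-numbered libraries deviated together only weakly (correlations of 0.0658, 0.00629 and 0.129). By correlation sgMLL3 replicates 1 and 3 lay nearest to the sgNT library of their own number, and replicate 2 to sgNT replicate 1. The labels do not name pairs, and the main fits did not take the numbers as pairs. Pairing is not excluded by this. With a replicate block PLAUR passed (-0.24, limma adjusted p = 0.026), which made 2 members lower, and 11 pathway genes were higher and 16 lower. Calls rose over the whole table as well, to 3241 genes higher and 3024 lower, beside 2760 and 2099 without the block. With the block and the trend removed PLAU was -0.13, SERPINB6 -0.30 and SERPINB8 -0.05, with 4 pathway genes higher and 4 lower and 540 and 773 genes over the table. Genes of few reads, such as SERPINF2 and PDGFD, are limited by counting error as well as by the spread between libraries.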
